A study of Mus musculus with 12 samples.

Results

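The genes of the proteasome were examined in bulk RNA sequencing of mouse lung. Members were the genes of the deposited table whose transcript types include protein coding and whose symbol is Psma, Psmb, Psmc, Psmd, Psme, Psmf or Psmg followed by a number. This rule found 48 of the 38349 genes in the table, and no symbol was repeated. Only 6 of the 48 are listed as protein coding and nothing else, so the transcript type was read as including protein coding. The 48 were sorted by the known role of their products. There were 7 alpha ring subunits, 7 constitutive beta ring subunits, 6 ATPases of the regulatory particle and 11 of its non-ATPase subunits, which together made 31 constitutive subunits. The immunoproteasome set held 5 genes, namely Psmb8, Psmb9, Psmb10, Psme1 and Psme2. The remaining members were 3 other activators or inhibitors (Psme3, Psme4 and Psmf1), 7 assembly chaperones and 2 core subunits known from single tissues (Psma8 and Psmb11).

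Whole lung of wild-type mice gave 12 libraries, 3 in each group, and the groups are called Control, ALI, MSC or tpMSC. ALI stands for an acute lung injury from hypoxia and lipopolysaccharide, as the series title gives it. The MSC and tpMSC groups carry the names of the agents whose effect on that injury was studied, and MSC usually stands for mesenchymal stromal cells. The labels used here do not spell out tpMSC, and they give no strain, age, dose, route or time, nor whether the Control animals received a vehicle.

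The proteasome is the barrel-shaped protease that degrades proteins tagged with ubiquitin. Its core is built of alpha rings, which gate the barrel, and beta rings, which carry the proteolytic sites. A regulatory particle binds the ubiquitin chain, removes it and threads the substrate into the core with its ATPases. Interferon gamma induces Psmb8, Psmb9 and Psmb10, which take the places of the catalytic subunits Psmb5, Psmb6 and Psmb7 in newly built cores, and also Psme1 and Psme2, which form a cap that opens the core without ATP. The resulting immunoproteasome supplies many of the peptides shown on class I major histocompatibility molecules, and leukocytes carry it without further induction.

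Library totals ran from 53083002 to 70209229 counts. The 48 genes took 0.320% to 0.354% of all counts in the Control libraries, 0.421% to 0.438% in ALI, 0.380% to 0.415% in MSC and 0.380% to 0.432% in tpMSC, so every ALI library lay above every Control library. Lung epithelial and endothelial markers were detected in all libraries. The third tpMSC library stood apart in the immunoproteasome genes: all 5 were higher there than in any of the other 11 libraries, and values without it are given beside the results that rest on it. Whether replicates came from different mice is not stated in the labels, so the p-values rest on differences between libraries that could be technical alone.

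Of the 48 members, 47 passed the filter on low counts. The exception was Psmb11, the thymus-specific beta subunit, with 26 counts over all 12 libraries and 0 in each ALI library. Psma8, the alpha subunit of testis, passed the filter but was listed at 0.06 to 0.31 FPKM (fragments scaled to transcript length and library size) in single libraries, and its log2 fold change in ALI against Control was 0.20 ± 0.46 (SE, adjusted p = 0.769). Among the constitutive subunits the Control means, on the FPKM scale, ran from 11.3 FPKM for Psmd11 to 68.4 FPKM for Psma6, with a median of 28.1 FPKM. The immunoproteasome genes lay within that span except Psmb9 with 10.8 FPKM. The assembly chaperones had a median Control mean of 7.28 FPKM and a highest value of 11.6 FPKM, for Psmd10. The core and the regulatory particle were thus listed at higher levels than most of the factors that assemble them.

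Promoters are shown for 2 pairs of exchanged subunits, Psmb8 with Psmb5 and Psmb9 with Psmb6, and for Psme1, because these genes carry the contrast described here. Each sequence is the RefSeq window from 250 bases before the transcription start to 50 bases after it on the GRCm38.p6 build, printed along the gene's own strand. Capitals mark a match to 1 of 3 motifs, searched on both strands and chosen with the values already known. They included TTCNNNGAA, the gamma-activated site, and TGACNNNGC, the antioxidant response element. The last was the interferon-stimulated response element, written as GAAA, any 2 bases and GAAA.
Psmb8: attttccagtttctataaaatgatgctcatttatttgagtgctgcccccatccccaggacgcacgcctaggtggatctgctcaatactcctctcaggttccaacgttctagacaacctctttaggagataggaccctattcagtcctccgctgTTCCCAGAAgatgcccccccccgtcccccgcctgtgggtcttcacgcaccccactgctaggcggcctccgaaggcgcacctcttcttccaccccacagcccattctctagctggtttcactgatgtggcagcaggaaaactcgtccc
Psmb5: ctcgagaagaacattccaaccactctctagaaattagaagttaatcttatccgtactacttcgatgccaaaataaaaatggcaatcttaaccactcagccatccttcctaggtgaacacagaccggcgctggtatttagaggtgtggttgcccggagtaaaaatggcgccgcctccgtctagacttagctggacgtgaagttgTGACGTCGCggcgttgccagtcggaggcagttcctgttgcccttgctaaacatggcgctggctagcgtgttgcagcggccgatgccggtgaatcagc
Psmb9: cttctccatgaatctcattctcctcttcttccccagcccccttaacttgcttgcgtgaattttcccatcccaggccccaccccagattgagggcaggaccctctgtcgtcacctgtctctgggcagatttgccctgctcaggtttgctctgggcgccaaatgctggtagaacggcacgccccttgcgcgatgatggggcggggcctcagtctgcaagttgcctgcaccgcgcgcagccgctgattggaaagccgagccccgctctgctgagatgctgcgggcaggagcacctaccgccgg
Psmb6: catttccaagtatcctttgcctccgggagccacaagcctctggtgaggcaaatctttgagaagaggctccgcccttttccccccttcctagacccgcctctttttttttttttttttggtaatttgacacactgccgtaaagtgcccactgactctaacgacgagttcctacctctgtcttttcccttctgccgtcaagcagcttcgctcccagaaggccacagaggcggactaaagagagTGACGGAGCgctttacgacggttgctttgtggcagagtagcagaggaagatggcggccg
Psme1: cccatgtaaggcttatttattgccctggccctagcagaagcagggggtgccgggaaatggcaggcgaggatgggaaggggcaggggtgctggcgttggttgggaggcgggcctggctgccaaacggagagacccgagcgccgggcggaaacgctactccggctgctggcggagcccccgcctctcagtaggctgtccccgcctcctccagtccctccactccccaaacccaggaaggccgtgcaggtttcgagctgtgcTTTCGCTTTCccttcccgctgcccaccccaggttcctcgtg
The windows lie at chr17:34197945-34198244 (plus strand) for Psmb8, chr14:54617946-54618245 (minus strand) for Psmb5, chr17:34187281-34187580 (minus strand) for Psmb9, chr11:70525107-70525406 (plus strand) for Psmb6 and chr14:55578244-55578543 (plus strand) for Psme1. Psmb8 held TTCCCAGAA with its first base at -97 from the start. Psmb5 and Psmb6 held TGACGTCGC at -47 and TGACGGAGC at -9. In Psme1 the interferon-stimulated element lay on the opposite strand, read here as TTTCGCTTTC from base 10. These letters also occur widely: of 32851 promoters of this length, 8.3% held the gamma-activated site, 3.44% the interferon-stimulated element and 12.4% the antioxidant element. Among 43 promoters matched to 40 of the members, 3, 5 and 6 held them, respectively. The gamma-activated site was found in Psmb8, Psmd2 and Psmg1, and the interferon-stimulated element in Psme1, the constitutive subunits Psmb3 and Psmd4 and the chaperones Psmd9 and Psmg4. The antioxidant element was found in Psmb5, Psmb6, Psmc6, Psmd12, Psmd9 and Psme4. Both interferon-related motifs thus also occurred outside the immunoproteasome set, and the windows of Psmb9, Psmb10 and Psme2 held none of the 3. A match is a description of the letters and not a shown binding site. The windows of Psmb8, Psmb9 and Psme1 lie wholly inside the gene spans given below, so they do not cover the bases before those spans. The windows of Psmb5 and Psmb6 reach upstream of their gene spans.

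The first comparison, ALI against Control, asks which proteasome genes differ in the injured lung. Nearly the whole family was higher. By edgeR's quasi-likelihood test with Benjamini-Hochberg adjustment over all 22915 genes tested, 35 of 47 members rose and 0 fell, where a gene is called at an adjusted p under 0.05. Over all genes tested, 20.2% were called higher and 19.6% lower, and among the 9807 genes with a mean of at least 4 log2 CPM (counts scaled to library size) the share called higher was 29.4%. For 40 members every ALI library lay above every Control library, against 27.5% of all genes. The median log2 fold change was 0.38 over the 47 members and -0.02 over all genes, so the typical member rose modestly. Leaving out single libraries moved the count of called members between 28 and 37.

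The largest rise was that of Psmb8, which provides the chymotrypsin-like site of the immunoproteasome (ENSMUSG00000024338, chr17:34197721-34201454, plus strand, GRCm38). It measured 13.33, 15.67 and 17.47 FPKM in the Control libraries, 33.53, 37.40 and 34.61 in ALI, 32.44, 33.95 and 37.01 in MSC, and 23.17, 29.66 and 54.28 in tpMSC. Every library of the other groups lay above all Control libraries, while ALI, MSC and tpMSC overlapped one another. In ALI against Control the log2 fold change was 1.24 ± 0.25 (SE, adjusted p = 0.00178), a 2.37-fold rise.

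Psme2, the beta subunit of the cap (ENSMUSG00000079197, chr14:55587441-55591113, minus strand), measured 29.17, 32.53 and 32.72 FPKM in Control, 55.75, 64.20 and 53.23 in ALI, 50.20, 50.19 and 49.37 in MSC, and 41.94, 45.43 and 75.69 in tpMSC. Control lay below all other libraries, and all MSC libraries lay below all ALI libraries. It rose by 0.94 ± 0.18 on the log2 scale in ALI against Control (adjusted p = 0.00168). Psme2b, a close copy of Psme2 outside the members, was listed at 22.54 to 27.71 FPKM in Control and 39.36 to 51.79 in ALI, and how reads were divided between the copies is not given, so each of their levels is uncertain. Psme1, the alpha subunit of the same cap, whose gene lies 5911 bases from Psme2 (ENSMUSG00000022216, chr14:55578123-55581529, plus strand), measured 44.52, 49.84 and 50.98 FPKM in Control, 71.67, 74.40 and 67.05 in ALI, 65.97, 66.60 and 61.77 in MSC, and 57.62, 63.76 and 88.74 in tpMSC. It showed the same order as Psme2, with Control lowest and all MSC libraries below all ALI libraries. Its log2 fold change in ALI against Control was 0.61 ± 0.14 (adjusted p = 0.00365).

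Psmb9, which replaces the caspase-like subunit (ENSMUSG00000096727, chr17:34181987-34187764, minus strand), measured 9.08, 11.13 and 12.16 FPKM in Control, 14.23, 20.71 and 14.34 in ALI, 19.87, 19.87 and 22.80 in MSC, and 16.45, 21.23 and 33.22 in tpMSC. The second ALI library was well above the other two. The rise in ALI was 0.67 ± 0.23 on the log2 scale (adjusted p = 0.0393), and without that library it was 0.46 (adjusted p = 0.159), so the call rested on it. The call was also lost without any single Control library, with adjusted p from 0.0533 to 0.137, and it held in 11 of 19 alternatives. Psmb9 overlaps Tap1, a peptide transporter gene on the opposite strand, by 212 bases, and the strand setting of the counting is not given.

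Psmb10, which replaces the trypsin-like subunit (ENSMUSG00000031897, chr8:105935735-105938444, minus strand), measured 32.31, 36.73 and 36.99 FPKM in Control, 46.31, 52.75 and 46.99 in ALI, 54.92, 52.44 and 46.64 in MSC, and 43.75, 47.16 and 85.32 in tpMSC. All 9 libraries of the other groups lay above Control. Its log2 fold change in ALI against Control was 0.52 ± 0.21 and missed the threshold (adjusted p = 0.0617). The test takes its spread from all 12 libraries, and without the third tpMSC library the same difference of 0.52 had an adjusted p of 0.000711. That library was singled out by its high values of these same genes, so the smaller p is no independent support. Psmb10 was called in 4 of 19 alternatives. In all, 4 of the 5 immunoproteasome genes rose in ALI, with a median log2 fold change of 0.67 over the 5.

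**Figure D1:**
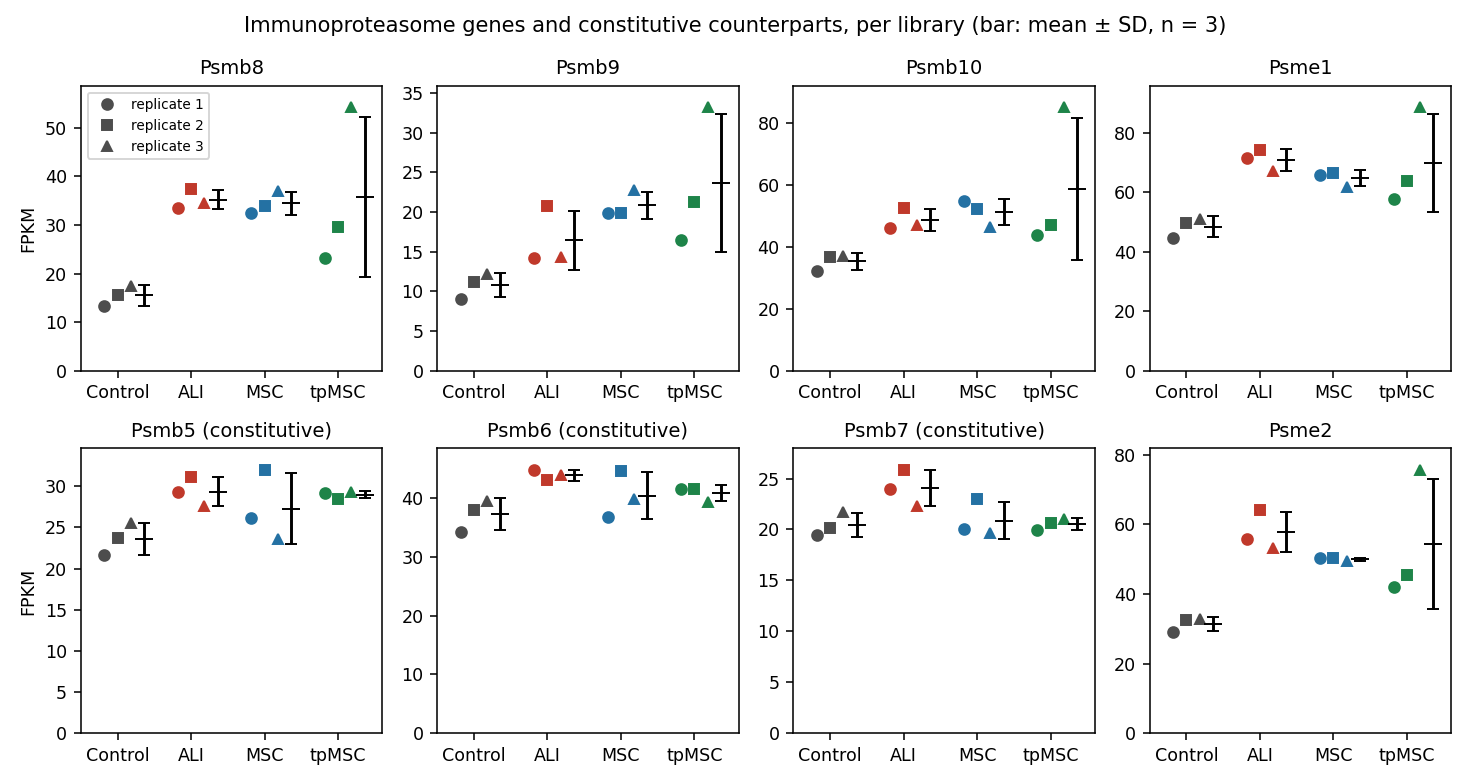
FPKM of the 5 immunoproteasome genes and of the constitutive subunits Psmb5, Psmb6 and Psmb7 in each library, by group, on linear axes that start at 0; bars show the mean ± SD over 3 libraries. The 3 Control libraries are lowest for each immunoproteasome gene, and the third tpMSC library is highest, with 54.28 FPKM for Psmb8 and 85.32 for Psmb10.

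Most constitutive subunits also rose in ALI, with a smaller median. Of the 31, 27 were called higher, and for 29 the ALI and Control libraries did not overlap. Their median log2 fold change was 0.38, from 0.16 for Psmd4 to 0.81 for Psmd14. By role, the called genes were 7 of 7 alpha subunits, 5 of 7 beta subunits, 5 of 6 ATPases and 10 of 11 non-ATPase subunits. The 4 that were not called were the beta subunits Psmb1 (log2 fold change 0.21, adjusted p = 0.0542) and Psmb3 (0.21, adjusted p = 0.0969), the ATPase Psmc1 (0.21, adjusted p = 0.0561) and the ubiquitin receptor Psmd4 (0.16, adjusted p = 0.113). The mean over the ALI libraries was the highest of the 4 groups for 30 of the 31 subunits, the exception being Psmc5, which was highest in tpMSC.

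Psmd14, the deubiquitinase of the lid, moved most among them. It measured 12.87, 13.84 and 16.11 FPKM in Control, 24.93, 22.34 and 24.68 in ALI, 16.75, 20.32 and 17.81 in MSC, and 16.42, 17.56 and 18.75 in tpMSC. Each ALI library lay above all other libraries, and the MSC and tpMSC libraries lay between ALI and Control. The rise in ALI was 0.81 ± 0.10 on the log2 scale (adjusted p = 7.81e-05). Psmd8, another lid subunit, measured 22.36, 23.62 and 23.33 FPKM in Control and 35.43, 35.25 and 36.86 in ALI, with 28.15, 32.85 and 29.54 in MSC and 28.01, 26.59 and 29.41 in tpMSC. It showed the same order of groups without overlap between ALI and the rest, and rose by 0.69 ± 0.07 (adjusted p = 2.08e-05). The scaffold subunits of the base, Psmd1 and Psmd2, rose by 0.56 and 0.54 on the log2 scale. Among the alpha subunits the largest rise was that of Psma5, at 0.59, with a mean of 33.04 FPKM in Control against 47.58 in ALI.

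The catalytic subunits that the immunoproteasome genes replace rose by 0.30 to 0.38 on the log2 scale in ALI. Psmb5, with the chymotrypsin-like site, measured 21.58, 23.71 and 25.48 FPKM in Control, 29.27, 31.10 and 27.57 in ALI, 26.16, 32.01 and 23.63 in MSC, and 29.19, 28.46 and 29.25 in tpMSC. The MSC libraries spanned nearly the whole range of the other groups, and ALI lay above Control by 0.38 on the log2 scale (adjusted p = 0.0159). Psmb6, with the caspase-like site, measured 34.26, 37.92 and 39.55 FPKM in Control, 44.81, 42.96 and 43.82 in ALI, 36.68, 44.60 and 39.87 in MSC, and 41.59, 41.52 and 39.29 in tpMSC. Psmb7, with the trypsin-like site, measured 19.50, 20.12 and 21.74 FPKM in Control, 23.93, 25.88 and 22.33 in ALI, 20.00, 22.98 and 19.61 in MSC, and 19.92, 20.64 and 21.02 in tpMSC. For both genes ALI lay above Control without overlap, and both rose by 0.30 on the log2 scale (adjusted p = 0.0112 for Psmb6 and 0.0133 for Psmb7).

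The remaining members divided. Psme3, which forms the nuclear cap, rose by 0.47 in ALI (adjusted p = 0.00153), and Psme4, a single-chain activator that opens the core, by 0.33 (adjusted p = 0.00124). Psmf1, an inhibitor of the core, had a log2 fold change of -0.22 that missed the threshold (adjusted p = 0.0897). Of the 7 assembly chaperones, 2 rose. Psmd10, also called gankyrin, which helps to assemble the ATPase ring, measured 11.04, 11.61 and 12.19 FPKM in Control, 19.76, 18.08 and 20.38 in ALI, 16.04, 19.86 and 14.26 in MSC, and 16.29, 14.55 and 14.87 in tpMSC. All libraries of the other groups lay above Control, and it rose by 0.80 ± 0.11 in ALI (adjusted p = 0.000161). Psmg1, a chaperone of the alpha ring, rose by 0.48 (adjusted p = 0.004). The other chaperones were not called: Psmg4 at 0.50, Psmg3 at 0.18, Psmd9 at 0.06, Psmg2 at -0.05 and Psmd5 at -0.06.

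**Figure D2:**
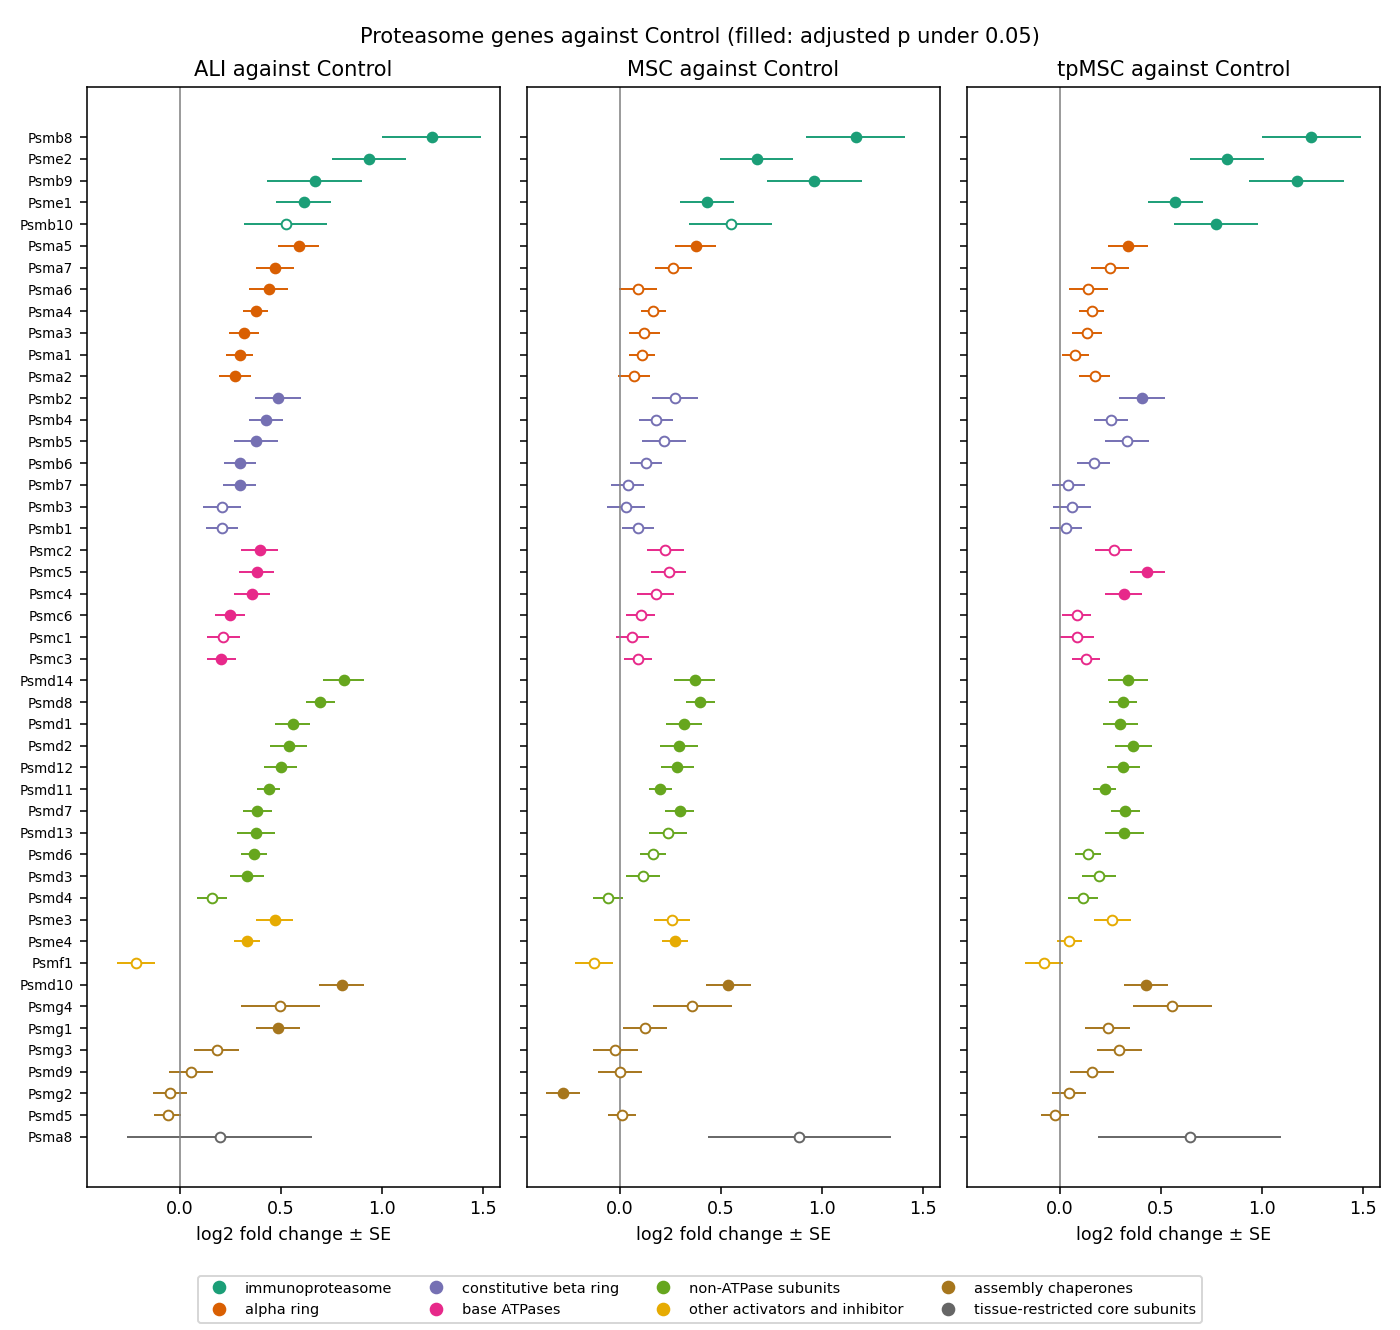
Log2 fold change against Control (horizontal axis, ± SE, edgeR) of the 47 members tested, in ALI, MSC and tpMSC, coloured by role; filled points have an adjusted p under 0.05. In ALI 35 points are filled, against 15 in MSC and 18 in tpMSC, and Psmb8 stands farthest to the right in all 3 panels.

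The next comparisons set the MSC and tpMSC groups against ALI, to see how the proteasome genes differ from injury alone. Both use the same ALI libraries, so their values are given side by side and are not independent of each other. In MSC, 4 of 47 members fell and 0 rose, where 5.21% of all genes were called lower and 5.03% higher. In tpMSC, 10 fell and 0 rose, where 11.5% of all genes were called lower and 11.6% higher. Among genes with a mean of at least 4 log2 CPM the shares called lower were 9.24% and 17.5%, so the member counts are near the background of well-expressed genes in both groups. MSC libraries lay below ALI without overlap for 21 members, against 13.4% of all genes, and tpMSC libraries for 16, against 20.3%. The median log2 fold change over the members was -0.195 in MSC and -0.129 in tpMSC, against 0.02 and 0.01 over all genes. The counts of calls depended on single libraries. For MSC the count was 0 without the first or the third ALI library or the first MSC library, 2 without the last MSC library and 11 without the second MSC library. For tpMSC it was 3, 6, 5 and 4 without the first ALI, second ALI, first tpMSC and second tpMSC library, respectively.

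All 4 members that fell in MSC were constitutive subunits. Psmd14 fell by 0.44 ± 0.10 (adjusted p = 0.018), Psma6 of the alpha ring by 0.35 (adjusted p = 0.0386, called in 7 of 19 alternatives), Psmd8 by 0.30 (adjusted p = 0.0223) and the lid subunit Psmd11 by 0.24 (adjusted p = 0.0201). The log2 fold change was negative for all 31 constitutive subunits, with a median of -0.20. In tpMSC the constitutive median was -0.17 and 30 of 31 values were negative, the exception being Psmc5 at 0.05. The 8 constitutive subunits that fell in tpMSC were Psma1, Psma4, Psma6, Psmb7, Psmd6, Psmd8, Psmd11 and Psmd14. The largest of these falls was that of Psmd14, by 0.47 (adjusted p = 0.00585). Next were Psmd8, by 0.38 (adjusted p = 0.00279), and Psma6, by 0.30 (adjusted p = 0.0417). The calls of Psmd14 and Psmd8 held in all 19 alternatives. Psmd11 was called in 16 of 19, Psma4 in 13, Psmd6 in 12, Psma1 in 10, and Psma6 and Psmb7 in 7 each. Outside the constitutive set, Psmd10 fell by 0.375 in tpMSC (adjusted p = 0.0295) and Psme4 by 0.29 (adjusted p = 0.00646).

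Psme4 differed in its order of groups. It measured 10.75, 10.40 and 10.23 FPKM in Control, 13.12, 12.11 and 12.66 in ALI, 11.91, 12.39 and 13.31 in MSC, and 10.69, 10.58 and 10.34 in tpMSC. The tpMSC libraries lay within the Control range, and the MSC libraries within and just outside the ALI range, with no overlap between MSC and tpMSC. The difference between tpMSC and MSC was -0.23 on the log2 scale and missed the threshold (adjusted p = 0.172).

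The immunoproteasome genes were not called in MSC or tpMSC against ALI. In MSC their log2 fold changes were -0.08 ± 0.24 for Psmb8, 0.29 ± 0.23 for Psmb9, 0.03 ± 0.20 for Psmb10, -0.18 ± 0.14 for Psme1 and -0.26 ± 0.18 for Psme2, with adjusted p from 0.427 to 0.961. In tpMSC the values were 0.00 for Psmb8, 0.50 for Psmb9, 0.25 for Psmb10, -0.04 for Psme1 and -0.11 for Psme2, with adjusted p from 0.147 to 0.999. The standard errors leave room for changes of the size seen in the constitutive subunits, so these values do not show that the genes were unchanged. The tpMSC values rested on the third tpMSC library. Without it, Psmb8 fell by 0.44 against ALI (adjusted p = 0.0366) and Psme2 by 0.43 (adjusted p = 0.00758), while Psme1 was at -0.25 (adjusted p = 0.0554), Psmb10 at -0.12 and Psmb9 at 0.17. The third library was singled out by its high values of these same genes, so the adjusted p-values without it are no independent support for a fall. Without the first tpMSC library, Psmb9 was at 0.72 and called higher (adjusted p = 0.0451).

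Between tpMSC and MSC, 0 members were called by edgeR, 5 had an unadjusted p under 0.05, DESeq2 called 2, Psme4 at -0.235 (adjusted p = 0.0158) and Psmg2 at 0.32 (adjusted p = 0.0183), and limma called 0 on voom values and 0 on FPKM. The 5 were Psmc5, Psmd4, Psme4, Psmg2 and Psmg3. The share of all genes with an unadjusted p under 0.05 was not computed, so these 5 cannot be set apart from other genes. At the adjusted threshold 0.0305% of all genes were called, so few genes of any kind passed in this comparison. The 5 immunoproteasome values were all positive, from 0.08 for Psmb8 to 0.22 for Psmb10, and all 5 were negative without the third tpMSC library, from -0.36 for Psmb8 to -0.07 for Psme1.

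Set against Control, part of the family was higher in both groups. These comparisons share the Control libraries with each other and with ALI against Control. In MSC, 14 members were called higher, where 10.7% of all genes were, and 1 lower, where 8% were. In tpMSC, 18 were called higher, where 9.1% of all genes were, and 0 lower, where 6.79% were. Among genes with a mean of at least 4 log2 CPM, 15.1% were called higher in MSC and 13.6% in tpMSC. Libraries did not overlap for 28 members in MSC and 32 in tpMSC, against 19.2% and 19.9% of all genes. Without the first Control library the counts of called members were 4 in MSC and 4 in tpMSC, and without the second they were 5 and 6. The count in MSC was 6 without the second MSC library and 9 without the third, and the count in tpMSC was 10 without the third Control library and 9 without the third tpMSC library.

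Of the constitutive subunits, 8 of 31 were called higher in MSC, with a median log2 fold change of 0.18, and 12 of 31 in tpMSC, with a median of 0.22. The non-ATPase subunits made up 7 of the 8 and 8 of the 12. The only member called lower was Psmg2, a chaperone of the alpha ring, which fell by 0.28 in MSC (adjusted p = 0.0376). This call held in 8 of 19 alternatives, and the highest adjusted p among them was 0.147, without the first Control library. It measured 9.94, 9.30 and 8.52 FPKM in Control and 7.76, 7.32 and 7.54 in MSC, with 8.62, 8.26 and 8.85 in ALI and 9.13, 9.55 and 9.26 in tpMSC. The MSC libraries were the lowest of the 12.

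Of the 5 immunoproteasome genes, 4 were called higher than Control in MSC and 5 in tpMSC, and all 5 lay above Control without overlap in both groups. Psmb8 was higher by 1.17 in MSC (adjusted p = 0.00734) and 1.24 in tpMSC (adjusted p = 0.00693). Psmb9 was higher by 0.96 (adjusted p = 0.0153) and 1.17 (adjusted p = 0.0076), and Psme2 by 0.68 (adjusted p = 0.0241) and 0.83 (adjusted p = 0.0117). Psme1 was higher by 0.43 (adjusted p = 0.046) and 0.57 (adjusted p = 0.0164), and its call in MSC held in 8 of 19 alternatives. Psmb10 was at 0.55 in MSC, which missed the threshold (adjusted p = 0.0858), and rose by 0.77 in tpMSC (adjusted p = 0.0266). These calls were sensitive to the Control libraries: without the first, only 1 of the 5 was called in MSC and 2 in tpMSC. In MSC 2 were called without the second or the third Control library, and likewise without the second or the third MSC library. Without the third tpMSC library all 5 were still called in tpMSC. The log2 fold changes were then 0.81 for Psmb8, 0.84 for Psmb9, 0.51 for Psme2, 0.40 for Psmb10 and 0.36 for Psme1. Leaving it out also narrowed the spread, with an SE for Psmb8 of 0.25 with it and 0.13 without it. That library was singled out by its high values of these same genes, so these calls are no independent support.

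Set against the constitutive subunits within each library, the immunoproteasome genes had shifted further from Control in all 9 libraries of the other groups. The mean shift from the Control mean over the 5 genes was 0.79 ± 0.14 log2 CPM (SD, n = 3) in ALI, 0.76 ± 0.02 in MSC and 0.86 ± 0.50 in tpMSC. Over the 31 constitutive subunits it was 0.39 ± 0.03 in ALI, 0.18 ± 0.10 in MSC and 0.22 ± 0.05 in tpMSC. The constitutive shift was therefore smaller in every MSC and tpMSC library, at most 0.29, than in any ALI library, at least 0.36, while the immunoproteasome shift of the MSC libraries, 0.74 to 0.77, lay inside the ALI range of 0.71 to 0.96. The tpMSC libraries were at 0.45, 0.70 and 1.42, and their mean without the third was 0.58. The third library thus carried most of the tpMSC spread in the immunoproteasome genes, while its constitutive shift of 0.27 was close to the 0.17 and 0.22 of the others.

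**Figure D3:**
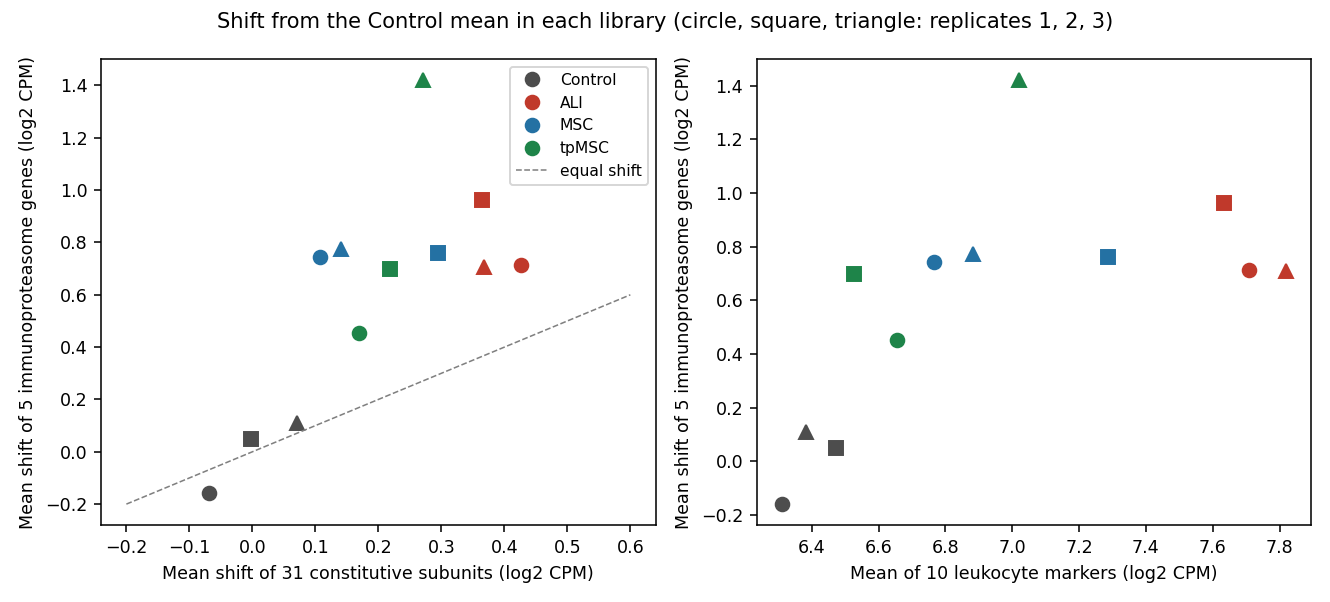
Mean shift of the 5 immunoproteasome genes from their Control mean (vertical axis, log2 CPM) in each of the 12 libraries, against the mean shift of the 31 constitutive subunits (left) and against the mean level of 10 leukocyte markers (right). The dashed line marks equal shifts; all ALI, MSC and tpMSC libraries lie above it, and the third tpMSC library is highest at 1.42 with a constitutive shift of 0.27.

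The transcripts of exchanged catalytic subunits were compared as the FPKM ratio of each immunoproteasome subunit to the one it replaces. Such a ratio in whole lung does not measure the exchange of proteins in the core. The part of the mix of cells in it was not tested. Psmb8 to Psmb5 was 0.655 ± 0.034 (SD, n = 3) in Control, 1.20 ± 0.055 in ALI, 1.29 ± 0.26 in MSC and 1.23 ± 0.56 in tpMSC. Psmb9 to Psmb6 was 0.289 ± 0.022, 0.376 ± 0.092, 0.520 ± 0.066 and 0.584 ± 0.23 in the same order. Psmb10 to Psmb7 was 1.73 ± 0.087, 2.03 ± 0.085, 2.47 ± 0.24 and 2.85 ± 1.1. Psmb8 therefore went from below Psmb5 to above it in ALI, Psmb9 remained below Psmb6 in every library, and Psmb10 was above Psmb7 throughout. In single libraries Psmb8 to Psmb5 was 0.794, 1.042 and 1.856 in tpMSC, so the first of these was still below 1.

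All 3 ratios lay above Control without overlap in ALI, MSC and tpMSC. In ALI the ratios were 1.83, 1.28 and 1.17 times the Control ratios for Psmb8, Psmb9 and Psmb10. The Psmb9 value rested on the second ALI library: the log2 ratio was higher by 0.36 with it and by 0.16 without it. Each of these 9 differences had an exact two-sided permutation p of 0.1, the smallest that 3 libraries against 3 allow, and an adjusted p of 0.164 over the 18 tests of ratios, so none could pass. Psmb10 to Psmb7 was also above ALI without overlap in MSC, at 2.746, 2.282 and 2.378 against 1.935, 2.038 and 2.104, and in tpMSC, at 2.196, 2.285 and 4.059. These had the same exact permutation p of 0.1 and adjusted p of 0.164. The other comparisons with ALI had exact permutation p from 0.2 to 0.9, and none of the 3 ratios separated tpMSC from MSC. The tpMSC ratios rested on the third tpMSC library. Against Control the log2 differences were 0.82, 0.95 and 0.66 for Psmb8, Psmb9 and Psmb10 with it and 0.48, 0.64 and 0.38 without it. Against ALI they were -0.06, 0.59 and 0.43 with it and -0.40, 0.29 and 0.15 without it.

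**Figure D4:**
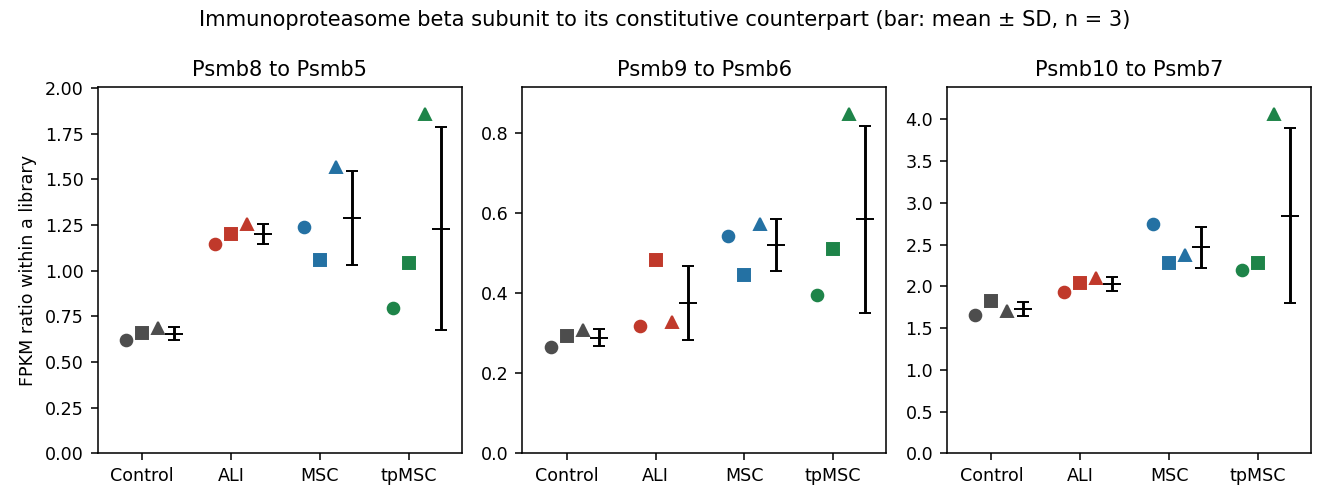
FPKM ratio of each immunoproteasome beta subunit to the constitutive subunit it replaces (vertical axis, no unit) in each library, by group; circles, squares and triangles are replicates 1, 2 and 3, and bars show the mean ± SD. The Control libraries are lowest in all 3 panels, and the third tpMSC library is highest, at 1.856, 0.846 and 4.059.

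Genes that work with the proteasome but have no Psm name were listed as well, with 20 genes for ubiquitin supply, receptors, deubiquitinases, assembly and transcription. Of these, 13 rose in ALI against Control and 0 fell, with a median log2 fold change of 0.25. Among those with the smallest p was Ddi2, the protease that activates the transcription factor Nfe2l1, which rose by 0.50 (adjusted p = 0.00106). Txnl1, a thioredoxin-like protein bound to the regulatory particle, rose by 0.37 (adjusted p = 0.00171), and the deubiquitinase Uchl5 by 0.54 (adjusted p = 0.0022). Nfe2l1, which drives proteasome genes when proteasome activity is low, measured 41.63, 46.34 and 41.75 FPKM in Control and 55.06, 52.10 and 54.31 in ALI and rose by 0.38 (adjusted p = 0.00306). It was chosen for naming after its values were seen. Against ALI, none of the 20 rose in MSC, and Zfand5, a proteasome activator, was among those that fell, by 0.24 (adjusted p = 0.0417). In tpMSC the shuttle factor Ubqln2 rose by 0.34 (adjusted p = 0.007) and Akirin2, which carries proteasomes into the nucleus, by 0.34 (adjusted p = 0.00636), while Zfand5 fell by 0.35 (adjusted p = 0.00289). Against Control, 4 were higher in MSC (Usp14, Ecpas, Nfe2l1 and Ddi2) and 6 in tpMSC, with Zfand5 lower in both. Over all genes, 20.2% were called higher than Control in ALI, 10.7% in MSC and 9.1% in tpMSC. Among genes with a mean of at least 4 log2 CPM the shares were 29.4%, 15.1% and 13.6%. The list's 20% in MSC was thus near the share of well-expressed genes.

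A second list held 19 genes for class I peptide supply and for interferon gamma signalling. Of these, 16 rose in ALI against Control and 0 fell, with a median log2 fold change of 0.84. Over all genes 20.2% were called higher there. By smallest p the list was led by the receptor chain Ifngr2, which rose by 1.20 (adjusted p = 7.67e-06), and the kinase Jak2, by 1.40. B2m, the light chain of class I molecules, rose by 1.10 (adjusted p = 0.000368), with a mean of 895.4 FPKM in Control against 1845 in ALI. Calr, a chaperone of class I assembly, rose by 0.83 (adjusted p = 0.000693). Against ALI the same 3 fell in both groups, and none rose: Ifngr2 by 0.54 in MSC and 0.92 in tpMSC, Jak2 by 0.72 and 1.12, and the kinase Jak1 by 0.49 and 0.64. Against Control 14 were higher in MSC and 11 in tpMSC. Over all genes, 5.21% in MSC and 11.5% in tpMSC were called lower than ALI, and 10.7% and 9.1% higher than Control. This list shared some, but not all, of its highest libraries with the immunoproteasome genes. Of its 19 genes, 14 were highest of all 12 libraries in the third tpMSC library, and 11 of the 19 had their highest ALI value in the second ALI library, where all 5 immunoproteasome genes also had theirs. Within Control, 3, 8 and 8 of the 19 were highest in replicates 1, 2 and 3, respectively. All 5 immunoproteasome genes were highest in replicate 3 there. Within MSC the counts were 5, 7 and 7 for the list and 1, 2 and 2 for the immunoproteasome genes. The share of all genes that were highest in each library was not computed. Tap1, beside Psmb9 and Psmb8 on chromosome 17, measured 21.03, 26.84 and 53.50 FPKM in tpMSC. Ifng itself was listed at 0.25, 0.57 and 1.96 FPKM in tpMSC against 0.09 to 0.21 in Control. Its log2 fold change against Control was 1.959 in ALI, 2.477 in MSC and 2.495 in tpMSC, so higher estimates were not particular to tpMSC. These estimates come from levels near the floor, and the tpMSC value includes the third library, at 1.96 FPKM. Tap1 and Ifng were chosen for naming after their values were seen. The part of interferon signalling in the result was not tested.

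Leukocytes moved with the groups too. Of 10 pan-leukocyte markers, 9 rose in ALI against Control, 8 fell in MSC against ALI and 8 fell in tpMSC against ALI. Their summed level ran from 312.4 to 349.6 FPKM in Control, 764.9 to 831.5 in ALI, 415.6 to 611.4 in MSC and 352.9 to 483.5 in tpMSC. All 10 had their highest tpMSC value in the third library. The leukocyte sum lay below all ALI libraries in every MSC and tpMSC library. The immunoproteasome shift, which is on another scale (log2 CPM), was at least 0.708 in ALI and at least 0.743 in MSC. It was 0.453 in the first tpMSC library and, only just below ALI, 0.699 in the second. The 12 neutrophil markers all rose in ALI, with sums of 3859 to 4351 FPKM against 156.9 to 249.2 in Control, and were at 494.7 to 1012 in MSC and 487.3 to 636.4 in tpMSC. Of 12 monocyte and macrophage markers, 8 rose in ALI and 1 fell. Sums were 227.1 to 278.2 FPKM in Control, 458.1 to 513.9 in ALI, 490.4 to 1034 in MSC and 577 to 684.1 in tpMSC. Against ALI, however, 2 of the 12 rose and 7 fell in tpMSC, with a median log2 fold change of -0.63 and Chil3 at 3.46. In MSC 1 rose and 1 fell, with a median of -0.06 and Chil3 at 3.01. Mean levels were 5.74 to 5.88 log2 CPM in ALI and 5.56 to 5.89 in tpMSC, so the sums alone do not stand for the list. Of 13 T and NK cell markers, 7 fell in ALI and 0 rose. Sums were 77.89 to 118.1 FPKM in Control, 39.76 to 58.11 in ALI, 58.57 to 89.75 in MSC and 54.09 to 86.59 in tpMSC. Against ALI, 0 were called in MSC, and in tpMSC 2 rose with a median log2 fold change of -0.15 over the 13. The 8 B cell markers summed to 68.76 to 129.7 FPKM in Control, 60.31 to 90.4 in ALI, 37.03 to 80.23 in MSC and 25.35 to 32.28 in tpMSC. Lung markers moved as well. All 10 endothelial markers fell in ALI against Control, with sums of 1222 to 1249 FPKM in Control, 611.4 to 661.7 in ALI, 726.4 to 924 in MSC and 902.3 to 1011 in tpMSC. Against ALI 4 of the 10 rose in MSC and 10 in tpMSC, and against Control 10 were lower in MSC and 6 in tpMSC. Of 12 epithelial markers, 6 fell and 3 rose in ALI against Control, and against ALI 2 rose in MSC while 6 rose and 2 fell in tpMSC. Their mean level ran from 9.54 to 9.61 log2 CPM in Control, 9.14 to 9.33 in ALI, 9.35 to 9.54 in MSC and 9.48 to 9.69 in tpMSC. Summed, the 12 were at 2.979e+04 to 3.703e+04 FPKM in Control and 1.352e+04 to 1.659e+04 in ALI. They were at 2.042e+04 to 2.673e+04 in MSC and 2.36e+04 to 3.387e+04 in tpMSC. No marker on these lists was at 0 counts in any library. The part of these cells in the proteasome results was not tested, and in bulk tissue fewer cells of a type and less RNA per cell cannot be told apart.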

How the data were processed

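Per the file headers, the table deposited by the authors lists every gene with a count in each library beside an FPKM. The counts were taken as unnormalized. Tools named in the submitters' processing notes, without roles, are StringTie 1.3.4d, HISAT2 2.0.4, cutadapt 1.9, edgeR and DESeq2, with the build GRCm38. How reads were counted, with which strand setting and annotation, is not given there. Poly(A) RNA was selected and the second strand marked with dUTP, per the labels' protocols. Deposited gene starts differed from GRCm38 for all 48 members, so printed positions are those of GENCODE M21 (GRCm38), matched by gene ID.

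Counts were filtered with filterByExpr, scaled by TMM and tested over the 12 libraries together, with a mean for each group, by the quasi-likelihood test of edgeR 4.0.16 (R 4.3.3), adjusted by Benjamini-Hochberg over 22915 genes. The script was tested on simulated data. Levels are deposited FPKM, and ratios were tested with exact permutation in scipy 1.17.1. Library totals of 53083002 counts or more keep counting error small for members other than Psma8 and Psmb11.

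Replicate numbers showed no pairing (18 same-number pairs, r from -0.108 to 0.104), so no block was used. The alternatives were 7 other settings, among them DESeq2 1.42.0 and limma 3.58.1, and 12 fits without 1 library. Named members were the 5 immunoproteasome genes and their counterparts, up to 5 with the largest called change each way, the tissue-restricted pair, members whose call changes, and up to 4 genes per other list by smallest p. Some genes of those lists are not reported here. Members and lists were chosen with earlier results of these data known. No promoter entry was matched for Psma8, Psmb1, Psmb2, Psmb7, Psmc3, Psmd3, Psmd7 and Psmg2.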

Additional observations from a re-analysis of the deposited data

How the results depend on the processing

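Members called in ALI against Control ran from 28 to 37 without single libraries. With the replicate block, which the pairing check did not support, the counts of called members were 34 in ALI against Control, 4 in MSC against ALI, 9 in tpMSC against ALI, 0 in tpMSC against MSC, 13 in MSC against Control and 16 in tpMSC against Control. In MSC against ALI, scaling by library totals called 2 members (2 constitutive), DESeq2 12 (10) and voom with sample weights 16 (14). In tpMSC against ALI, library totals called 4 (3), no filter 4 (3) and voom 21 (18). DESeq2 called 2 members in tpMSC against MSC, and limma on FPKM called 7 constitutive subunits in tpMSC against Control. The cause of these differences was not tested.

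Without single libraries, called members ran from 0 to 11 in MSC against ALI (constitutive 0 to 10), 3 to 10 in tpMSC against ALI (constitutive 2 to 8, immunoproteasome 0 to 2), 4 to 17 in MSC against Control (constitutive 1 to 10, immunoproteasome 1 to 5) and 4 to 20 in tpMSC against Control (constitutive 2 to 14, immunoproteasome 2 to 5).

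Some values that were not called changed sign. For Psmb8 in tpMSC against ALI the log2 fold change was -0.009 with relative log expression factors and with DESeq2, -0.068 with limma on FPKM, -0.260 with voom and -0.071 with the replicate block, and Psmb5 was at 0.004 with library totals. In tpMSC against MSC, Psmb7 was at -0.007 with relative log expression factors, -0.003 with library totals, -0.006 with DESeq2 and -0.019 with limma. Psmb8 there was at -0.039 with limma and -0.195 with voom, and voom gave -0.048 for Psmb10 and -0.062 for Psme2.

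Leaving out single libraries gave these ranges of log2 fold changes. In MSC against ALI, Psmb10 ran from -0.012 to 0.105. In tpMSC against ALI, Psmb5 ran from -0.080 to 0.018, Psmb8 from -0.436 to 0.243, Psmb10 from -0.123 to 0.432, Psme1 from -0.251 to 0.091 and Psme2 from -0.426 to 0.057. In tpMSC against MSC, Psmb6 ran from -0.033 to 0.122, Psmb7 from -0.036 to 0.082, Psmb8 from -0.360 to 0.318, Psmb9 from -0.123 to 0.419, Psmb10 from -0.152 to 0.403, Psme1 from -0.071 to 0.270 and Psme2 from -0.169 to 0.313. In MSC against Control, Psmb7 ran from -0.040 to 0.084. The log2 ratio of Psmb8 to Psmb5 ran from -0.066 to 0.215 in MSC against ALI, -0.400 to 0.212 in tpMSC against ALI and -0.484 to 0.128 in tpMSC against MSC. In tpMSC against MSC, Psmb9 to Psmb6 ran from -0.201 to 0.347 and Psmb10 to Psmb7 from -0.136 to 0.307. Of the single named values under all alternatives, 1022 kept direction and side of the threshold, 102 lost the call, 16 gained one and 38 changed sign.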
